A study of Mus musculus with 12 samples.

Results

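Nonsense-mediated decay (NMD) transcripts were examined in the hippocampus of adult mice. They were taken as the transcripts that the GENCODE vM21 annotation types as nonsense-mediated decay and that reached 0.1 TPM, a relative abundance corrected for transcript length, in at least 6 of 12 libraries. Of 6822 such annotated transcripts in the deposited table, 3459 met this rule, 2472 were above 0 in some library without meeting it, and 891 were listed at 0 in all 12. The 3459 transcripts came from 2613 genes and stood among 59852 transcripts of all types that passed the same filter and 115270 listed in all.

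Hippocampal RNA from 12 male C57BL/6 mice (C57BL/6J in the study's methods) at postnatal day 70 was measured by stranded, rRNA-depleted total RNA sequencing, 1 library per mouse and 3 mice per group. Control mice had dams that drank only water and were left with the dam. Ethanol mice had dams offered 10% ethanol in water beside plain water, a voluntary drinking model, and were also left with the dam. Per the study's methods, ethanol was offered before mating, and again after it through gestation and until postnatal day 10. Stress mice had water-drinking dams and were kept alone, away from dam and litter, for 3 h of each day between postnatal days 2 and 14, and ethanol + stress mice had both exposures. The design sets each exposure, and both together, against control. Litters were split between the stressed and unstressed groups, which mouse came from which litter is not given in the sources used here, and blood alcohol was not measured.

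Nonsense-mediated decay is a cytoplasmic quality control that degrades mRNAs whose stop codon lies well upstream of an exon junction. Splicing leaves an exon junction complex near each junction, a ribosome that stops before one leaves it in place, and Upf1, the helicase at the centre of the pathway, is then phosphorylated by Smg1 and the mRNA is cut or decapped. Many genes of RNA-binding proteins use this route to limit their own level, by splicing in a poison exon that carries a stop codon. An NMD label in an annotation is a prediction from the position of the stop codon. The TPM of such a transcript is a steady-state level, which production and decay set together.

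The label could be seen in the annotated structures, as the definition requires. In 3442 of the 3459 transcripts (99.5%) the stop codon lay 50 nt or more before the last exon junction, against 162 of 29283 protein-coding transcripts with an annotated stop (0.553%). The median distance was 378 nt, and the median number of junctions after the stop codon was 3. The NMD transcripts had a median length of 1598 nt and a median reading frame of 318 nt, and protein-coding transcripts had 2340 and 1284 nt. In 2528 transcripts with an annotated start and a coding counterpart, the reading frame had a median of 31.1% of the length of that of the gene's most abundant coding transcript. The start of the reading frame was missing from the annotation in 884 of the 3459.

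The stop codon itself was examined against that most abundant coding transcript of the same gene. It fell inside the coding sequence of the coding transcript, as after a shift of reading frame, in 1687 NMD transcripts (48.8%), which held 59.7% of the NMD TPM. It fell in sequence that the coding transcript lacks, as in a poison exon or a retained stretch, in 1500 (43.4%). A further 183 used the same stop codon and had junctions after it, 29 stopped in the untranslated sequence of the coding transcript, and 60 had no coding counterpart above 0. TGA ended 55.7% of the NMD reading frames, TAA 24.1% and TAG 20.2%, and the same codons ended 49.8, 26.4 and 23.7% of those of 29267 protein-coding transcripts.

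The ends of the reading frames are shown for 10 transcripts on which results below turn: a pair of the most abundant, 3 from splicing factor genes with known poison exons, and 5 that differed between groups. Each line gives the last 30 coding bases, 5′ to 3′, read from the GENCODE vM21 transcripts, with the stop codon in capitals. Where the most abundant coding transcript of the gene ends elsewhere, its last 30 coding bases follow.
Ppia-201: caaagacagcagaaaactttcgagctcTGA
Ppia-202, coding: atcaccatttccgactgtggacagctcTAA
Mobp-204: aggagcaggtcaaccccaaggaagaagTGA
Mobp-201, coding: tctcccaccagagctcctaggttctggTAA
Srsf3-201: accatcatgtctcttctcaccaccctcTGA
Srsf3-202, coding: agccgatctaggtcaaatgaaaggaaaTAG
Tra2b-206: aatgagtatttgaagctcaggaataagTGA
Tra2b-204, coding: tcacgatcctactcacctcgtcgctacTAA
Srsf6-201: gccatgacgacagcagccttttgccatTAG
Srsf6-203, coding: tcaaggtccagatcaagttccagagatTAA
Tial1-206: aacttccaacaggtgtcaccaccccaaTAA
Tial1-202, coding: tatggaatggcaagcttcccgacacagTGA
Ptcd3-205: aagctgatgtatatacctttaatgcatTGA
Ptcd3-201, coding: agcagtgacagtgacagtgacgacaaaTGA
Rb1cc1-214: agcatgatgtctgtccaacattgcagtTGA
Rb1cc1-212, coding: aaagctgtgtcatggaataagaaagtaTAG
Samd12-202: gctgagacagcaaagggcgagccctgcTGA
Samd12-201, coding: acacaagcctcggtggagtgttctccaTAA
Hnrnpa1-203, same stop codon as the coding Hnrnpa1-202: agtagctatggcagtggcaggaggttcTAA

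In GRCm38 coordinates, the stop codon of Ppia-201 (ENSMUST00000090749.12, plus strand of chromosome 11, 6415870 to 6419815) ends at 6418243 and closes a reading frame of 40 codons before the stop, where the coding Ppia-202 has 164. Mobp-204 (ENSMUST00000174193.7, plus strand of chromosome 9, 120149742 to 120181484) ends after 81 codons and Mobp-201 after 170. Srsf3-201 (ENSMUST00000037776.15, plus strand of chromosome 17, 29032632 to 29042897) ends after 124 codons, in sequence that Srsf3-202 lacks, and Srsf3-202 encodes 164. Tra2b-206 (ENSMUST00000162413.8, minus strand of chromosome 16, 22246462 to 22265926) ends after 38 codons, in sequence that Tra2b-204 lacks, with 8 junctions after the stop, and Tra2b-204 has 288 codons. Srsf6-201 (ENSMUST00000017065.14, plus strand of chromosome 2, 162931562 to 162935026) ends after 135 codons, against 339 in Srsf6-203. Hnrnpa1-203 keeps all 320 codons of the coding transcript and differs from it after the stop codon, where it has 2 junctions, the last 90 nt downstream, and Hnrnpa1-202 has 1, at 14 nt.

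Most NMD transcripts were scarce. The median of the mean level over 12 libraries was 1.14 TPM (interquartile range 0.513 to 3.02), against 3.36 TPM for protein-coding and 0.584 TPM for retained-intron transcripts that passed the same filter. Of the 3459, 1870 had a mean of 1 TPM or more, 297 of 10 or more and 18 of 100 or more. The 12 most abundant held 25.1% of the summed NMD TPM and 99 transcripts held 50%. From the size of the smallest steps in the values, 12080000 to 14940000 read pairs per library were recovered, and at that depth the median NMD transcript rested on 12.5 read pairs per library. Only 1026 rested on more than 30.

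Precision was lowest for the scarce transcripts. A 0 in at least 1 library was listed for 1775 NMD transcripts (51.3%), against 40.0% of all transcripts tested. An exact 0 here is an estimate by the quantification program kallisto, which divides reads among the transcripts of a gene, and does not show that a transcript was absent. The coefficient of variation over the 12 libraries had a median of 60.1% (47.0% over all transcripts tested). It fell from 94.8% in the 843 transcripts under 0.5 TPM to 16.9% in the 141 over 20 TPM. At the edge of the rule, 323 transcripts reached 0.1 TPM in exactly 6 libraries, with a median level of 0.351 TPM, and 373 reached it in 5, with a median of 0.286 TPM. A transcript present in only 1 group could not pass.

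The NMD transcript was usually a minor product of its gene. Its share of the gene's summed TPM had a median of 5.87% (interquartile range 2.23 to 15.6%), 2187 transcripts were under 10%, and 181 (5.23%) made up 50% or more. In 334 of 3399 cases the NMD transcript was above the most abundant coding transcript of the gene. Most genes had a single one (2002 genes), 453 had 2 and 158 had 3 or more, with 11 in Tmem234, 7 in Rbm39, which encodes a splicing coactivator, and 6 each in Ttc3, Tardbp and Zdhhc3. The 6 of Tardbp, the gene of TDP-43, an RNA-binding protein known to limit its own mRNA, together took 35.2% of its TPM. The summed share of all NMD transcripts of a gene had a median of 9.15%, and it was 50% or more in 224 genes.

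**Figure D1:**
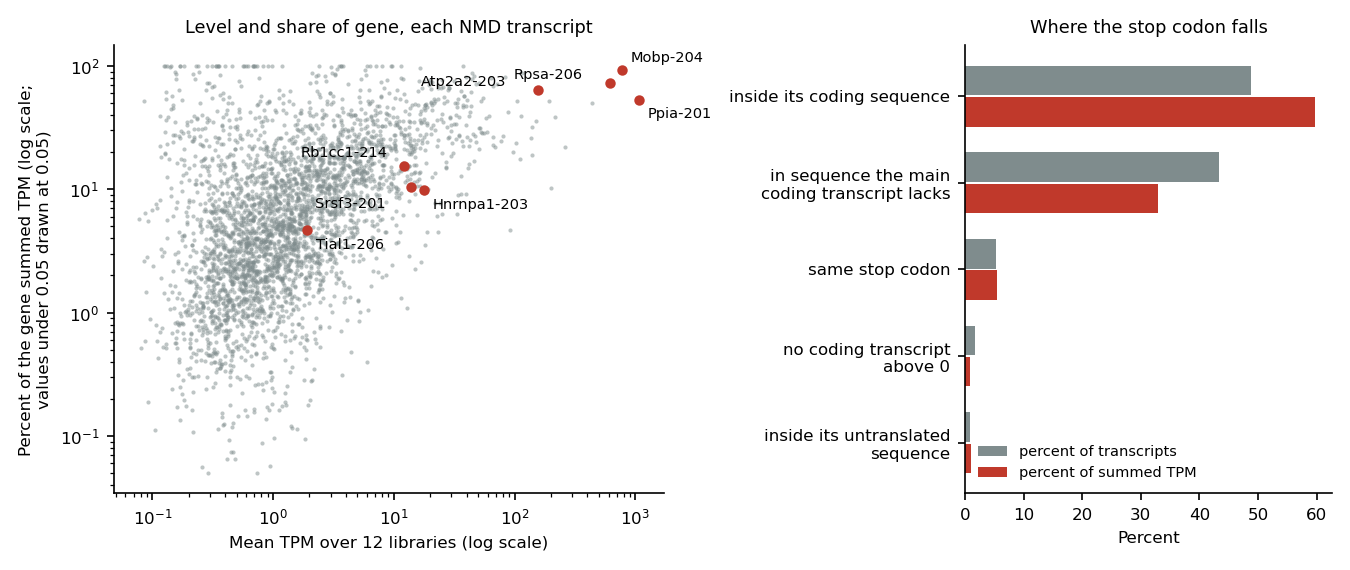
Left, each of the 3459 NMD transcripts by its mean TPM over 12 libraries and its percent of the summed TPM of its gene, both on log scales, with 8 transcripts named. Right, the place of the stop codon relative to the gene's most abundant coding transcript, as percent of transcripts (grey) and of summed TPM (red). Most transcripts lie under 10% of their gene, and stop codons inside the coding sequence hold 59.7% of the TPM.

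The most abundant NMD transcripts included products of ribosomal protein, prolyl isomerase and myelin genes. Ppia-201, from the gene of cyclophilin A, a prolyl isomerase, was the highest: its TPM in replicates 1, 2 and 3 was 1064, 953 and 873 in control, 1090.2, 1407 and 908 in ethanol, 1149, 957 and 1059 in stress, and 890.4, 1356 and 1243 in ethanol + stress. All 4 groups overlapped, and its share of the gene stayed between 50.3 and 57.0%. Rpsa-206, from the gene of a small ribosomal subunit protein that also binds laminin, had means of 572, 638, 581 and 671 TPM in control, ethanol, stress and ethanol + stress, with SDs of 6.43, 182, 80.0 and 165 (n = 3 each), and took 70.9 to 74.1% of its gene. Prdx6-208 took 49.99 to 53.9% of the TPM of the gene of a peroxiredoxin, an antioxidant enzyme. Ppia, Rpsa, Rpl13a and Hnrnpa1 are known for many processed pseudogenes with nearly the same sequence, so how reads were shared out there is uncertain.

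Mobp, a gene of compact myelin made by oligodendrocytes, was the extreme. Mobp-204 took 90.3 to 93.0% of the gene's TPM in every library. Its TPM was 766, 699 and 688 in the control replicates, 766, 968 and 450.2 in ethanol, 850.1, 732 and 580.0 in stress, and 600.2, 1111 and 1130.0 in ethanol + stress. The groups overlapped, and the 3 highest values were those of ethanol 2 and ethanol + stress 2 and 3. The same 3 libraries had the highest mitochondrial shares of all TPM (7.71, 7.80 and 8.34%, against 5.73 to 6.93% in the other 9). The sum of the oligodendrocyte genes Mbp and Mog was 2890.3, 3370.3 and 3337 TPM in those libraries, within or above the 1350.1 to 2919.9 TPM of the others. In bulk tissue, fewer or more oligodendrocytes and less or more RNA per cell cannot be told apart, and their part in the Mobp values was not tested.

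Shares of the gene varied more between libraries in some of the other abundant NMD transcripts. Eif4a2-210, from an RNA helicase of translation initiation whose gene also hosts small nucleolar RNAs, took 20.1 to 25.03% of its gene. Atp2a2-203, from the gene of the calcium pump SERCA2, took 56.4 to 69.5%, and its level was lowest in ethanol 2 (94.1 TPM), ethanol + stress 2 (93.1) and ethanol + stress 3 (111), against 139.8 to 202 TPM in the other 9 libraries. Ap2m1-203, from the gene of a clathrin adaptor subunit, lay between 121 and 158 TPM in all 12.

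**Figure D2:**
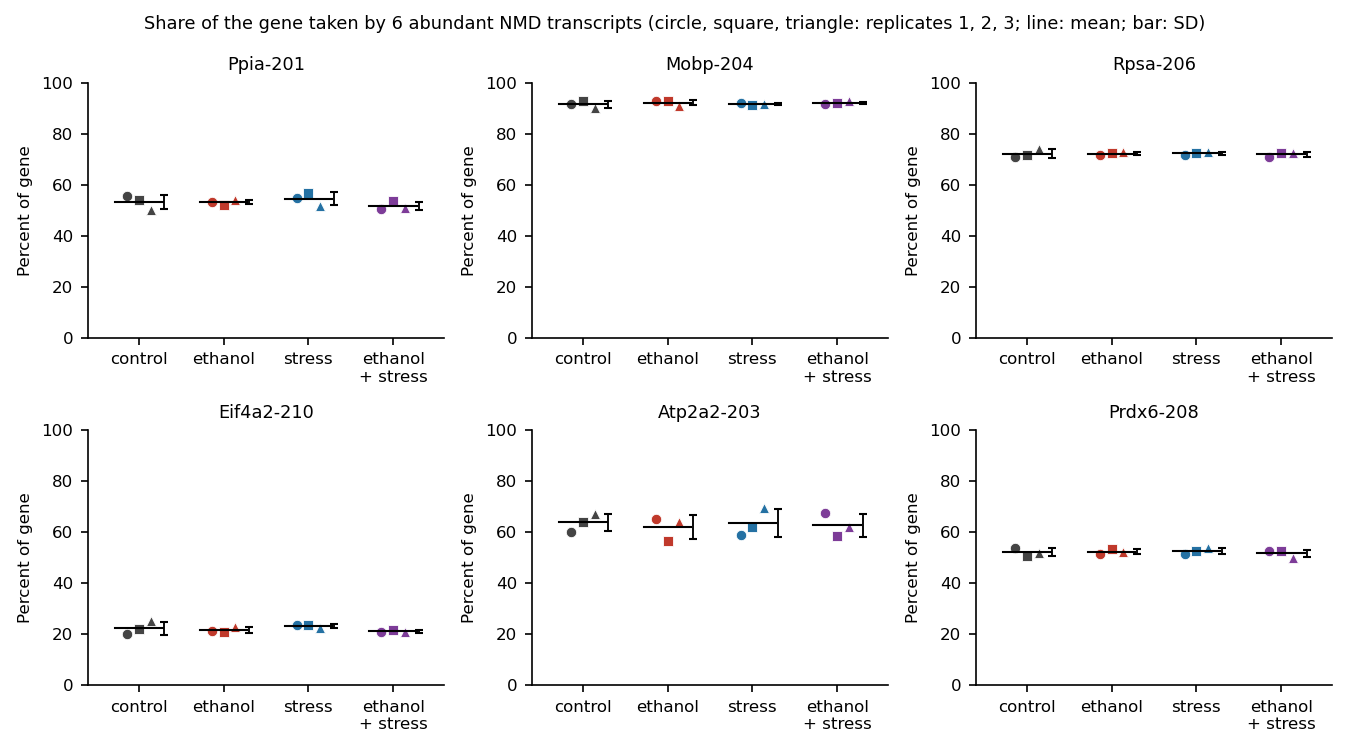
Percent of the gene's summed TPM held by 6 abundant NMD transcripts in each library, 3 per group (circle, square and triangle for replicates 1, 2 and 3), with the mean (line) and SD (bar). Mobp-204 stays between 90.3 and 93.0%, and each exposed group overlaps control in every panel.

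As a whole, the NMD transcripts held 1.69 to 1.78% of each library's TPM. The percent was 1.736, 1.736 and 1.744 in the control replicates, 1.716, 1.714 and 1.783 in ethanol, 1.743, 1.780 and 1.743 in stress, and 1.740, 1.708 and 1.691 in ethanol + stress. The control mean was 1.738% ± 0.00464 (SD, n = 3), that of ethanol 1.738% ± 0.0394, of stress 1.755% ± 0.0216 and of ethanol + stress 1.713% ± 0.0247. The exact two-sided permutation test gave p = 1 for ethanol, 0.3 for stress and 0.3 for ethanol + stress against control, and 0.287 over the 4 groups; 3 against 3 mice cannot give less than 0.1. The stress difference of 0.0168 percentage points ran from 0.00433 (without stress 2) to 0.0231 (without stress 3) with 1 library left out. In the same way, the exact permutation p over the 4 groups ran from 0.0594 (without ethanol 3) to 0.647 (without ethanol + stress 3). The ethanol and ethanol + stress differences changed sign with the denominator: with mitochondrial and the 20 highest transcripts left out of the library total, the means were 2.275, 2.332, 2.294 and 2.335% in the same group order.

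Set against the summed TPM of their own genes, the NMD transcripts of control mice held 11.14% ± 0.101 (SD, n = 3), those of ethanol mice 11.38% ± 0.423, of stress mice 11.30% ± 0.0543 and of ethanol + stress mice 11.45% ± 0.348. The replicates were 11.248, 11.05 and 11.11% in control, and 11.36, 11.29 and 11.251% in stress, which did not overlap and gave the smallest p the design allows (0.1, exact two-sided permutation test). The highest control and the lowest stress library nearly met, and the groups overlapped with no filter, at 1 TPM in at least 6 libraries and without the 20 highest NMD transcripts (exact permutation p = 0.3, 0.2 and 0.3), but not without Mobp-204 (p = 0.1). The ethanol replicates (11.30, 11.84 and 11.004%) and the ethanol + stress replicates (11.05, 11.67 and 11.62%) overlapped control (exact permutation p = 0.5 and 0.4), and the exact permutation test over 4 groups gave p = 0.593. Without the 20 highest NMD transcripts, ethanol lay above every control (exact permutation p = 0.1). With 1 library left out, the ethanol difference of 0.243 percentage points ran from 0.0140 (without ethanol 2) to 0.431 (without ethanol 3). The ethanol + stress difference of 0.309 percentage points ran from 0.195 (without ethanol + stress 2) to 0.509 (without ethanol + stress 1) in the same way. The 3 high values were again ethanol 2 and ethanol + stress 2 and 3; without these, the ethanol mean was 11.15% and the remaining ethanol + stress library had 11.05%. The number of the 3459 transcripts above 0 was 2996, 2896 and 2875 in control and 3075, 3027 and 3042 in ethanol, with no overlap (exact permutation p = 0.1), and it spanned 2885 to 3061 in stress (p = 0.6) and 2987 to 3039 in ethanol + stress (p = 0.3).

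Retained-intron transcripts, which keep an intron after splicing, were set beside these totals, and are given after their values were seen. They held 3.00, 3.04 and 3.05% of library TPM in the control replicates, 3.16, 3.18 and 3.21% in ethanol, 2.90, 3.02 and 3.06% in stress, and 2.94, 3.05 and 2.98% in ethanol + stress. Ethanol lay above every control (exact two-sided permutation p = 0.1), and stress and ethanol + stress overlapped control (p = 0.7 and 0.4). The exact permutation test over 4 groups gave p = 0.0123, and an adjusted p of 0.0982 over the 8 totals so tested (Benjamini-Hochberg).

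**Figure D3:**
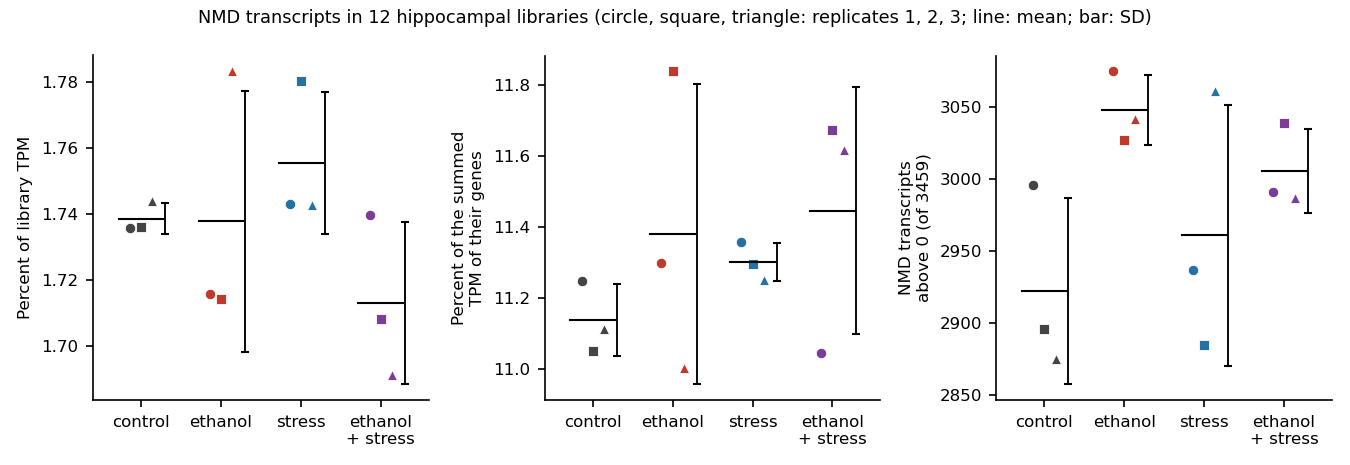
NMD transcripts in each of the 12 libraries, by group: percent of the library's TPM (left), percent of the summed TPM of their genes (middle) and number above 0 (right). Points are replicates 1, 2 and 3 (circle, square, triangle), lines are means and bars SDs; no axis starts at 0. The group means of the percent of library TPM lie between 1.713 and 1.755%.

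Libraries differed in other ways that accompany these values. The marker list for blood (5 genes) summed to 1603 to 2022 TPM in control and to 2454 to 6815 TPM in the 9 exposed libraries, without overlap, and that for choroid plexus (5 genes) ran from 40.1 to 7228 TPM over all libraries. All 6 markers of hippocampal neurons were present in every group, with a median sum of 244 TPM in control mice, 230 after ethanol, 243 after stress and 192 after both, and a range of 187 to 303 in ethanol + stress. In ethanol + stress the median was 879 TPM for astrocyte markers and 258 for microglia markers, against 713 and 229 in control, and the libraries of both groups overlapped. The part of these differences in the NMD values was not tested.

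Single transcripts were then compared between groups with limma on log2(TPM + 0.5), fitted over all 59852 transcripts, and were called at an unadjusted p under 0.01, the threshold the study used. After ethanol, 49 NMD transcripts were called (1.42% of 3459), 34 higher and 15 lower than control, where 1.26% of all transcripts were called, 0.896% higher and 0.361% lower. After stress, 45 were called (1.30%), 22 higher and 23 lower, against 0.914% of all, 0.5% higher and 0.414% lower. After ethanol + stress, 51 were called (1.47%), 30 higher and 21 lower, against 1.21% of all, 0.767% higher and 0.446% lower. The interaction, which asks whether both exposures together differed from the sum of each, was called for 40 (1.16%), against 0.854% of all. None of the 3459 passed a Benjamini-Hochberg adjusted p of 0.05 over all transcripts in limma. The lowest adjusted p was 0.353, 0.559, 0.283 and 0.512 in the 4 comparisons, and 197, 171, 227 and 185 NMD transcripts were at an unadjusted p under 0.05 (5.70, 4.94, 6.56 and 5.35%, against 5.43, 3.88, 5.57 and 4.06% of all transcripts).

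The split between higher and lower moved with scaling and with the libraries included. In the main fit 69.4, 48.9 and 58.8% of the called NMD transcripts were higher after ethanol, stress and ethanol + stress, against 71.3, 54.7 and 63.2% of all called transcripts. The split over all transcripts under the other settings is not given here, so the moves below are not read as particular to NMD transcripts. With each library rescaled to the same TPM sum, 28 were higher and 19 lower after ethanol and 25 higher and 30 lower after ethanol + stress. With median-of-ratios scaling the counts were 30 and 19 after ethanol and 28 and 21 after ethanol + stress. Without ethanol + stress 2 alone, 20 were higher and 28 lower after ethanol + stress, and without control 1 alone, 33 were higher and 15 lower after stress. Without the 3 libraries of highest mitochondrial share, 23 were higher and 23 lower after ethanol, and 15 higher and 30 lower after ethanol + stress, where 1 library remained. The median difference over all 3459 was 0.08, 0.01 and 0.05 on the log2 scale in the 3 comparisons, and over all transcripts 0.05, 0.00 and 0.04.

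The NMD transcripts whose 3 exposed libraries did not overlap the 3 controls numbered 335 after ethanol, 291 after stress and 357 after ethanol + stress. Over all transcripts that share was 10.2, 8.22 and 10.2%. All 3 comparisons share the same 3 control libraries, so a transcript with unusual control values can be called in several. Of the 49, 45 and 51 called, 37, 33 and 39 had a 0 in at least 1 library, and 11, 12 and 12 were listed at 0 in every control. In the exposed group of the comparison, 1, 5 and 7 were listed at 0 in every library.

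The called transcripts of RNA-binding and splicing genes are described first, and the others follow, some with a smaller p. Tial1 encodes TIAR, an RNA-binding protein of stress granules that also acts in splicing. Tial1-206 (ENSMUST00000133444.7, minus strand of chromosome 7, 128442209 to 128444905) had 2.61, 3.93 and 3.23 TPM in the control replicates, 0.961, 0.706 and 0.876 in ethanol, 1.67, 1.02 and 1.02 in stress, and 2.58, 2.53 and 2.01 in ethanol + stress. Ethanol and stress lay below every control, and ethanol + stress lay just under the lowest control. Relative to control it fell by 1.47 on the log2(TPM + 0.5) scale after ethanol (SE 0.27, limma adjusted p = 0.353) and by 1.12 after stress (SE 0.27, adjusted p = 0.885). Its share of the gene was 7.86% ± 1.73 (SD, n = 3) in control mice, 1.99% ± 0.203 after ethanol, 3.18% ± 1.18 after stress and 5.72% ± 0.931 after both, while the gene's sum stayed at 39.4 to 42.6 TPM in the group means. These levels rested on 4.04 to 22.2 read pairs per library.

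Hnrnpa1 encodes hnRNP A1, an abundant nuclear repressor of splicing. Hnrnpa1-203 (ENSMUST00000230171.1, plus strand of chromosome 15, 103240432 to 103246692) had 10.7, 9.71 and 14.8 TPM in control, 19.98, 26.2 and 21.4 in ethanol, 18.7, 16.9 and 24.6 in stress, and 15.7, 14.5 and 21.3 in ethanol + stress. Every ethanol and stress library was above every control, and ethanol + stress overlapped control. The difference was 0.92 (SE 0.20, limma adjusted p = 0.527) after ethanol and 0.75 (SE 0.20, adjusted p = 0.921) after stress on the log2(TPM + 0.5) scale. The stress difference was no longer called without control 1, control 2 or stress 3, with values of 0.70, 0.63 and 0.60. The gene's sum had group means of 182 to 184 TPM, and the transcript's share rose from 6.44% ± 1.42 (SD, n = 3) in control to 12.5% ± 2.32 in ethanol (called in the share fit, limma adjusted p = 0.735). That share call was lost without control 1, control 2, ethanol 1 or ethanol 2. It rested on 78.9 to 247 read pairs, and its reading frame is that of the full protein.

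Over the 63 listed splicing regulators outside the SR family, 34 genes had 63 NMD transcripts. After ethanol 2 of these rose (Hnrnpa1-203 and 1 of Hnrnpl) and 1 fell (Tial1-206), after stress 1 rose (Hnrnpa1-203) and 2 fell (Tial1-206 and 1 of Rbm39), and after ethanol + stress 1 rose (Hnrnpl) and 1 fell (Cirbp). That is 3, 3 and 2 of 63, where 1.42, 1.30 and 1.47% of all NMD transcripts were called. At an unadjusted p under 0.05 in limma there were 6, 5 and 9 of the 63 (9.52, 7.94 and 14.3%), against 5.70, 4.94 and 6.56% of all NMD transcripts. The Hnrnpl, Rbm39 and Cirbp transcripts are named here after their values were seen. That of Hnrnpl (ENSMUST00000174882.7), a splicing repressor whose gene is known for a poison exon, had 3.47, 0.781 and 8.62e-09 TPM in control, 6.84, 9.72 and 6.11 in ethanol, 2.78, 5.33 and 2.89 in stress, and 6.72, 6.92 and 3.33 in ethanol + stress. Its control values varied widely, and the difference after ethanol was 2.54 on the log2 scale (SE 0.61, limma adjusted p = 0.601). The median difference over the 63 was 0.19, 0.03 and 0.12 after ethanol, stress and ethanol + stress, beside 0.08, 0.01 and 0.05 over all NMD transcripts. Hnrnpu-206, the most abundant of these (43.4 TPM), took 38.7 to 54.5% of its gene and was not called.

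SR proteins, which bind exonic enhancers and whose genes carry ultraconserved poison exons, had 12 NMD transcripts from 9 of 13 listed genes. Together they held 78.3 TPM, 13.8% of the sum of their genes. None of the 12 was called by limma after ethanol, stress or ethanol + stress, and 0, 1 and 1 were at an unadjusted p under 0.05. Over all NMD transcripts 1.42, 1.30 and 1.47% were called. Their summed TPM was 78.9 ± 5.62 (SD, n = 3) in control mice, 78.6 ± 5.58 after ethanol, 73.9 ± 8.37 after stress and 81.9 ± 6.97 after both. Srsf3-201, the poison exon form of Srsf3, had 9.54, 14.3 and 16.4 TPM in control, 14.5, 17.2 and 13.4 in ethanol, 9.71, 10.3 and 13.4 in stress, and 13.8, 18.6 and 13.9 in ethanol + stress, and each exposed group overlapped control. Tra2b-206 ran from 6.85 to 14.5 TPM and from 9.04 to 18.6% of its gene, again with overlap. Srsf6-201 was 8.56, 3.81 and 4.54 TPM in control and 10.2, 10.6 and 10.9 in ethanol + stress, which did not overlap but was not called. Srsf2-204 in stress and Srsf1-204 in ethanol and ethanol + stress lay below every control, also without a call. Srsf9-205 took the largest share, 34.4 to 52.8% of its gene.

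**Figure D4:**
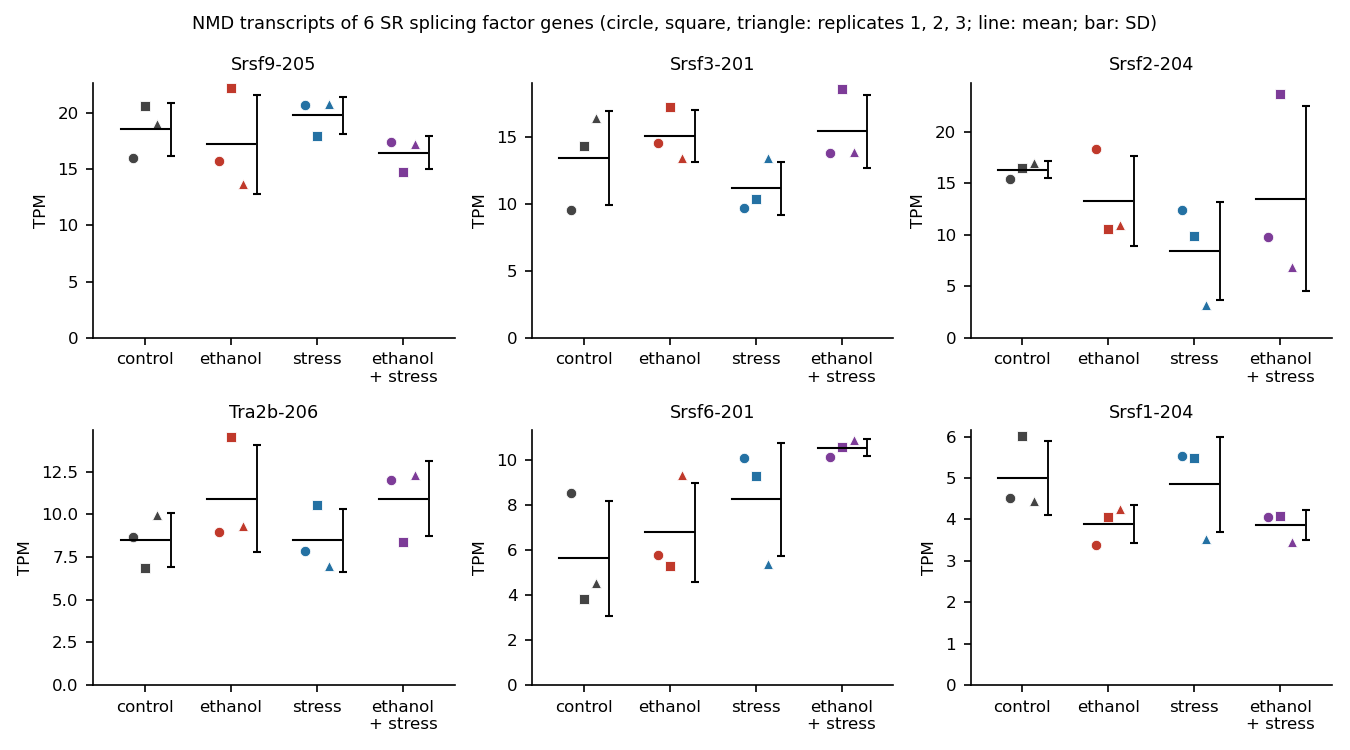
TPM of NMD transcripts from 6 SR splicing factor genes in each library, 3 per group (circle, square and triangle for replicates 1, 2 and 3), with the mean (line) and SD (bar); axes start at 0. Control and exposed libraries overlap in the panel of Srsf3-201, and the ethanol + stress libraries of Srsf6-201 lie at 10.2 to 10.9 TPM above controls at 3.81 to 8.56.

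A further group of called transcripts was measured above 0 in all or nearly all libraries. Rb1cc1 encodes FIP200, a scaffold of the kinase complex that starts autophagy. Rb1cc1-214 (ENSMUST00000162257.7, plus strand of chromosome 1, 6249088 to 6274490) had 13.4, 13.9 and 14.6 TPM in control, 15.4, 13.0 and 15.9 in ethanol, 14.6, 12.6 and 10.4 in stress, and 9.43, 6.94 and 6.27 in ethanol + stress. The 3 ethanol + stress libraries were the lowest of the 12. Relative to control it fell by 0.87 on the log2(TPM + 0.5) scale (SE 0.17, limma adjusted p = 0.463), and the share of the gene went from 17.2% ± 1.27 (SD, n = 3) in control to 10.5% ± 1.01 (called in the share fit, limma adjusted p = 0.708). This share call was lost without control 2, control 3, ethanol + stress 2 or ethanol + stress 3. The gene's sum was 81.4 ± 5.26 TPM in control and 71.1 ± 8.59 in ethanol + stress, which was not called. It rested on 100.1 to 296 read pairs per library.

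Ptcd3 encodes a pentatricopeptide protein of the mitochondrial ribosome. Ptcd3-205 (ENSMUST00000205556.1, minus strand of chromosome 6, 71888608 to 71897152) had 5.71, 7.25 and 5.74 TPM in control, 2.76, 2.96 and 1.67 in ethanol, 4.16, 3.55 and 3.28 in stress, and 3.35, 5.63 and 4.98 in ethanol + stress. All 9 exposed libraries were below the lowest control, and only the ethanol difference was called, a fall by 1.21 on the log2 scale (SE 0.25, limma adjusted p = 0.478). Its share of the gene was 7.57% ± 1.32 (SD, n = 3) in control and 2.60% ± 0.570 in ethanol, and the gene's sum had means of 82.7 and 94.2 TPM and was not called.

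Lmf1-206, from the gene of an endoplasmic reticulum factor that matures lipases, was chosen for its share of the gene. The share was 22.2, 15.3 and 24.5% in control, 12.3, 10.4 and 13.9% in ethanol, 5.42, 10.4 and 5.41% in stress, and 18.4, 17.6 and 18.01% in ethanol + stress. The stress and the ethanol libraries were below every control. The share fit gave a fall by 1.44 on the log2 scale after stress (SE 0.27, limma adjusted p = 0.658), and the difference after ethanol was -0.73 (SE 0.27, limma adjusted p = 0.806), which was not called.

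The remaining named transcripts were listed at 0 in a whole group, or nearly so, and their TPM is given in place of a fold against control. Each passed the filter of 0.1 TPM in at least 6 libraries only through its other groups, so that selection bears on these calls. Samd12-202 (ENSMUST00000132059.1, minus strand of chromosome 15, 53462194 to 53902381), from the gene of a sterile alpha motif protein, was listed at 0 in all 3 controls. It had 1.07, 0.999 and 2.02 TPM in ethanol, 1.78, 2.17 and 1.05 in stress, and 1.79, 2.20 and 0.947 in ethanol + stress. It was called in all 3 comparisons (limma adjusted p = 0.386, 0.561 and 0.319), which share those controls. It is 356 nt long, and its values rested on 1.14 to 3.07 read pairs per exposed library, under 3 pairs in 8 of the 9, and 3 pairs is the limit that a count of 0 allows.

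Pbx4-209, from a homeobox gene, was also listed at 0 in the controls, with 1.84, 1.16 and 1.03 TPM in ethanol, 0.986, 1.39 and 0.860 in stress, and 0.717, 0.144 and 0 in ethanol + stress. It was called after ethanol and after stress (limma adjusted p = 0.353 and 0.779). Dennd4b-206 had 0 in the controls, 0.629, 0.749 and 0.588 TPM in ethanol, 0.628, 0.337 and 0.362 in stress, and 0.308, 0 and 0 in ethanol + stress. Both transcripts lay higher in the singly exposed groups than in most or all ethanol + stress libraries. Ttyh1-215, from a chloride channel gene of glia, was at 0 in the controls, at 0, 0 and 0.569 TPM in ethanol, at 0.551, 0.620 and 0.561 in stress, and at 0.688, 1.10 and 0.627 in ethanol + stress. It was called after stress (limma adjusted p = 0.902) and after ethanol + stress (limma adjusted p = 0.517), where it was 0.178 to 0.334% of that gene. It rested on 2.16 to 4.48 read pairs in these 6 libraries, under 3 pairs in 5 of the 6.

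Others ran the opposite way. Clmn-207, from the gene of calmin, an actin-binding protein of neurons, had 0.766, 0.941 and 0.406 TPM in control and 0.533, 0.786 and 0.408 in ethanol, was listed at 0 in all 3 stress libraries, and had 0, 2.85e-05 and 0 in ethanol + stress (limma adjusted p = 0.561 after stress and 0.283 after ethanol + stress). Smarca2-234, from the gene of the BRM chromatin remodeller, had 2.09, 1.89 and 5.18 TPM in control, 2.73, 3.41 and 3.70 in stress, 1.29, 0 and 1.68 in ethanol, and 0 in all 3 ethanol + stress libraries (limma adjusted p = 0.466). Tpp2-208, from the gene of a large cytosolic peptidase, had 4.63, 1.37 and 1.75 TPM in control and at most 3.87e-07 TPM in stress (limma adjusted p = 0.559), and 1.29 to 2.35 TPM in the other 2 groups. Fbxl4-203, from the gene of a mitochondrial F-box protein, had 1.26, 2.76 and 1.06 TPM in control and 0 in all 3 ethanol + stress libraries, and the gene's sum had means of 20.3 and 21.9 TPM there. Values such as 3.87e-07 TPM are far below what 1 read pair is worth and are read as 0 for the transcripts named here. The counts of transcripts with a 0, or above 0, took only an exact 0 as 0.

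**Figure D5:**
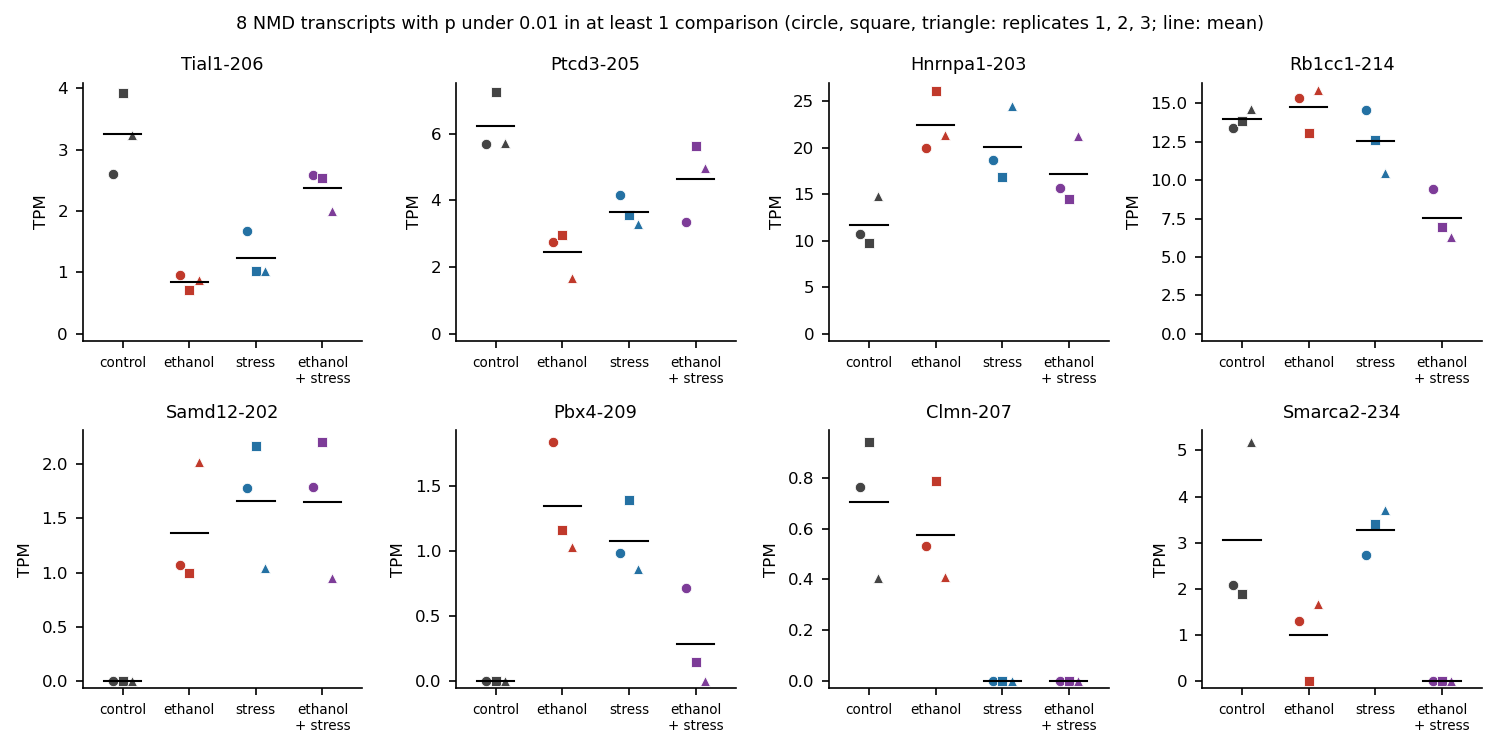
TPM of 8 NMD transcripts called in at least 1 comparison, in each library (circle, square and triangle for replicates 1, 2 and 3; line, mean; no error bar is drawn). In the top row the transcript is above 0 in every library, and in the bottom row at least 1 group holds values of 0, as the 3 controls do for Samd12-202.

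The share of the gene was also tested for all transcripts of genes with several products. Of 3390 NMD transcripts, 39 (1.15%) were called after ethanol, 42 (1.24%) after stress and 56 (1.65%) after ethanol + stress, and of 52732 transcripts of all types 1.31, 1.05 and 1.28% were. Most NMD transcripts called by TPM were also called by share (31 of 49, 34 of 45 and 35 of 51), while the sum of the gene was called for 0, 3 and 2 of them. The share has the same TPM as its numerator, and the called transcripts had a median of 5.61, 4.67 and 3.67% of their gene. Overlap with the share calls and few calls of gene sums thus follow largely from the measure. The sums of all genes were called for 0.678, 0.51 and 0.971% of 18434 genes.

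The genes of the decay machinery were compared as gene sums. None of 26 listed NMD factors (Upf1 to Upf3b, the Smg proteins, exon junction complex and release factors) was called by limma in any comparison, where 0.678, 0.51 and 0.971% of all genes were. After ethanol, stress and ethanol + stress, 0, 0 and 1 of the 26 were at an unadjusted p under 0.05 in limma, against 3.63, 2.4 and 5.37% of all genes. A list of 26 is too short for 0 calls to be read as a difference from those shares. Upf1 was at 21.4 ± 0.824 TPM (SD, n = 3) in control mice, 20.5 ± 3.28 after ethanol, 20.1 ± 1.64 after stress and 20.4 ± 4.87 after both. Smg9, a regulator of the Smg1 kinase, was the 1 of lowest p, at 17.6 ± 1.41 TPM in control and 14.6 ± 2.28 in ethanol + stress (limma adjusted p = 0.791). Without ethanol + stress 1, 3 of the 26 were called. The share of all genes called in that fit is not given here, so this count is not read as a result on these genes. The median difference over the 26 was -0.03, -0.02 and -0.07 on the log2 scale, against 0.02, 0.00 and 0.02 over all genes. Genes known as natural NMD targets, such as Atf4 (118 ± 7.50 TPM in control mice, 125 ± 7.15 after ethanol, 114 ± 11.4 after stress and 121 ± 15.3 after both), had no call by limma among the 8 of 12 listed that were tested, and 0 were at an unadjusted p under 0.05. These 8 are too few for 0 calls to be read as a difference from all genes.

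NMD factors themselves had 6 NMD transcripts from 5 genes. Smg1-204 took 18.9 to 34.8% of its gene, and Smg5-202 5.79 to 15.7%, without a call. Magohb-202, from an exon junction complex core gene, was listed at 0 in the controls, at 2.26, 0 and 0 TPM in ethanol, at 1.89, 7.40 and 0.995 in stress, and at 1.92, 1.08e-05 and 1.56 in ethanol + stress. It was called after stress (limma adjusted p = 1), on a mean of 2.88 read pairs, and its value for stress 2 was more than all others. The call was lost without stress 1, stress 2 or any 1 of the controls, and the difference ranged from 1.92 to 3.12 on the log2 scale with 1 library left out.

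Synaptic and channel genes had 19 NMD transcripts from 15 of 53 listed genes. None was called by limma after any exposure, where 1.26, 0.914 and 1.21% of all transcripts were, and 0 were at an unadjusted p under 0.05. A list of 19 is too short for 0 calls to be read as a difference from those shares. Gria3-206, from an AMPA receptor subunit gene, was the most abundant, at 25.4, 22.7 and 17.3 TPM in control, 16.6, 16.9 and 18.5 in ethanol, 24.0, 24.2 and 19.4 in stress, and 34.4, 15.5 and 18.1 in ethanol + stress, and each exposed group overlapped control. Gria2-203 took 0.923 to 2.79% of its gene, and Dlg1-209, from the gene of the scaffold SAP97, 0.787 to 10.8%. Ribosomal protein genes had 19 NMD transcripts from 16 of 86 listed genes with 1559 TPM in sum. None of these 19 was called by limma either, with the same limit, and 0, 1 and 1 were at an unadjusted p under 0.05 after ethanol, stress and ethanol + stress. Their sum was 1440.2 ± 41.4 TPM in control mice, 1624 ± 519 after ethanol, 1466 ± 216 after stress and 1705 ± 422 after both (SD, n = 3 each), so the groups differed by less than the spread of the exposed libraries.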

How the data were processed

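The values used are the deposited transcript-level signal in TPM for 12 libraries. Per the labels and the study's methods, the authors called bases with CASAVA, pseudo-aligned paired-end reads to the Ensembl mouse transcriptome (GRCm38, mm10) with kallisto and normalized with sleuth, in versions not given in the sources used here. The columns sum to 889222 to 1173650 rather than to a common total, and were used as a normalized signal, not as counts. Depth was recovered from the smallest steps in the values (81.7 to 87.6% of low values were whole numbers of read pairs within 0.15, where 30% would be if they were uniform).

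Transcripts were matched to GENCODE vM21 by Ensembl identifier (113580 of 115270, and 3439 of the 3459 NMD transcripts with the same version). The members, the gene lists and the tests were chosen with earlier results of these data known. limma 3.58.1 in R 4.3.3 was fitted over all 4 groups (moderated, with trend) on log2(TPM + 0.5) of the 59852 transcripts that passed the filter (0.1 TPM, 6 libraries), on log2 shares of the gene, and on log2 gene sums. All p-values of single transcripts and genes are from limma, a call is an unadjusted p under 0.01, and adjusted p-values are Benjamini-Hochberg over all features of the fit. With 3 mice per group, p-values set a difference against the spread between these mice, which in limma is pooled over the 4 groups and moderated. Litter was not part of any test. Totals were compared by exact two-sided permutation tests. The fits were tested on simulated data before use. Python 3.11.15, pandas 2.3.3, scipy 1.17.1 and matplotlib 3.10.9 were used.

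The transcripts named are the 12 of highest mean TPM, up to 6 called per exposure with the smallest p and no overlap with control, the 4 called for the interaction with the smallest p, up to 6 of highest TPM per gene list, the 6 of highest percent of their gene, and up to 4 called for share per exposure without overlap. Some transcripts that meet this rule are not reported here. Genes of the decay pathway were to be named where called, and none was. Same-numbered libraries of different groups did not deviate together (correlations -0.0615 to 0.0753 in 18 pairs), so the replicate number was not used as a block in the main fits. Alternatives were other pseudocounts, filters, scalings, samples and a replicate block, and leaving out each library.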

Additional observations from a re-analysis of the deposited data

Results flagged for a closer look

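The interaction term of the limma fit, which sets the effect of both exposures together against the sum of the single effects, was at an unadjusted p under 0.01 for 10 of the named NMD transcripts. These were named for small p-values, 4 of them for that of the interaction itself, so their number is no result. Of all 3459 NMD transcripts 40 (1.16%) were called for this term, and none passed adjustment over all transcripts. The term is a difference of differences on the log2(TPM + 0.5) scale, so where a group is listed at 0 its size depends on the 0.5 that was added. Over the alternatives, which include adding 0.1 and 1, it ran from -5.91 to -1.94 for Pbx4-209, -4.63 to -1.12 for Dennd4b-206, -3.84 to -1.23 for Samd12-202, -5.35 to -1.79 for Mbd5-212, 1.49 to 4.18 for Tpp2-208 and 3.18 to 7.93 for Sclt1-205.

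The term was positive for 4 transcripts. It was 2.21 for Tial1-206 and 1.49 for Ptcd3-205, whose mean levels were lower after each single exposure than after both. It was 2.17 for Tpp2-208, which was near 0 after stress alone (at most 3.87e-07 TPM) and at 1.29 to 2.35 TPM after ethanol and after both. Sclt1-205, from a gene of the centriole's distal appendages, was the largest at 4.48: it had 1.27, 2.61 and 5.74 TPM in control, at most 0.0183 in ethanol, 0, 0.285 and 4.26e-10 in stress, and 3.04, 2.24 and 0.381 in ethanol + stress.

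In the others the term was negative. It was -1.14 for Hnrnpa1-203, -2.95 for Pbx4-209 and -1.88 for Dennd4b-206, whose mean levels were higher after each single exposure than after both. It was -1.88 for Samd12-202, which was listed at 0 in control and was above 0 in all 9 exposed libraries, and -2.69 for Mbd5-212, which was highest in stress (2.96, 0.767 and 2.01 TPM). It was -0.78 for Rb1cc1-214, whose 3 lowest libraries were those of ethanol + stress. The Rb1cc1-214 call was lost when any 1 of 9 of the 12 libraries was left out and when libraries were rescaled to the same sum (-0.81). All 10 terms share the same 12 libraries, and no cause was tested.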

How the results depend on the processing

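Counts of NMD transcripts called stayed within 1.5 times the reported count under every scaling, pseudocount and sample choice tried, and moved with a stricter filter: at 1 TPM in at least 6 libraries, 17, 21, 23 and 17 were called after ethanol, stress, ethanol + stress and for the interaction, and 15, 21 and 23 for share of the gene. That filter left 1863 NMD transcripts for TPM and 1818 for share, so the shares called were 0.913, 1.13, 1.23 and 0.913% (0.903, 0.67, 1.01 and 0.593% of all transcripts), and 0.825, 1.16 and 1.27% by share (1.16, 1.01 and 1.17%). With the replicate block, 39 of the 41 calls of named transcripts by TPM and 24 of 27 by share were kept; without any 1 library, 36 of 41 and 18 of 27 were kept in every case, and no call changed direction under any alternative run.

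The difference in percent of library TPM after ethanol (-0.00083) changed sign without a filter (0.000433), without Mobp-204 (0.00407), without the 3 libraries of highest mitochondrial share (0.0109) and with mitochondrial and the 20 highest transcripts left out of the total (0.0568), and ranged from -0.0236 to 0.0109 with 1 library left out. That after ethanol + stress (-0.0256, and -0.0389 to -0.0146 with 1 library left out) changed sign without those 3 libraries (0.00111) and with the reduced total (0.0595), and its percent of the genes' sum also did so without those 3 libraries (-0.0911). Leaving out 1 library gave 0 to 1 called NMD factor genes after stress (1 without stress 1) and 0 to 3 after ethanol + stress (1 without control 2, 3 without ethanol + stress 1). Shares over all genes in the same fits are not given here, so these counts are not read as a result on the pathway. The cause of these changes was not tested. The 2 alternatives that leave out Mobp-204 or those 3 libraries were added after seeing the data.

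The median NMD transcript rested on 12.5 read pairs per library, and a listed 0 does not show absence.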
